A study of Caenorhabditis elegans with 12 samples.

Results

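The major sperm protein (msp) genes of Caenorhabditis elegans were compared between 3 silver exposures and a control. Every probe set whose platform symbol was msp- followed by a digit was taken, which gave 32 of the 22548 probe sets tested. Of these, 24 carried a single gene and stood for 23 msp genes, out of 17118 genes with such a probe set, and 8 were shared among several genes. All animals were wild-type N2 (Bristol). Larvae hatched from bleached eggs were 12 h old when they entered the test solutions, where they stayed for 48 h. The exposures were silver nanoparticles aged by sulfidation, silver nanoparticles left pristine, and silver nitrate, and the controls had control solution, with 3 arrays in each group. Every silver solution had the strength that affects reproduction by 30%, so the exposures were matched on effect and not on dose. RNA came from populations of 2000 to 3000 whole animals. The labels do not say that replicates were separate cultures, so the p-values measure only the spread between these samples, which may be technical. The number of arrays limits the precision.

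Major sperm proteins are small proteins made in developing sperm, where they form the filaments that drive the crawling of the nematode sperm cell. Sperm also release them as a signal, which acts on oocytes through the Eph receptor VAB-1 and other receptors and on the gonadal sheath, and which triggers oocyte maturation and sheath contraction. Hermaphrodites make sperm in late larval life and then switch to oocytes. The msp genes are near-identical copies of each other, so a probe for one can bind transcripts of others.

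The RefSeq gene table of assembly WBcel235 holds 35 msp symbols, of which 31 are protein-coding and 4 are pseudogenes. They lie on chromosomes II (15 loci) and IV (20 loci), and 28 of the 31 coding loci share the length of 384 bp. The array named 32 of the 35, with 9 of them on shared probe sets alone. The 23 genes with a probe set of their own lay on chromosome II (13 genes) and chromosome IV (10 genes). Of the 32 msp probe sets, 31 had the suffix _x_at, which Affymetrix gives where probes can also bind other transcripts, against 5.44% of all probe sets tested. The exception was 1 probe set of msp-32. A value given for an msp gene can therefore include signal from its copies. In RNA of whole animals, fewer sperm cells and less msp RNA per cell cannot be told apart.

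No msp probe set passed the test (limma, adjusted p under 0.05 over all probe sets) in any of the 6 pairwise comparisons or in the F test over the 3 exposures. Few probe sets of any kind passed, with at most 57 of 22548 in a pairwise comparison. All levels given here are log2 signals after scaling the arrays to a common median, with signals under 16 set to that floor (4 on the log2 scale). A difference is a lower bound in size if the lower group has an array at the floor and the higher group has none. Signals of different probe sets do not compare as amounts of RNA, so group differences set each gene only against itself. By signal alone the msp genes were weak. Of the 23 genes, 7 lay above the median of all probe sets (6.99) and 16 did not. Their means over the 12 arrays ran from 4.58 to 7.91.

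Against control, more msp genes had a lower than a higher group mean in each exposure. In aged particles 17 of the 23 genes lay lower and 6 higher, with a median log2 difference of −0.21 (range −0.71 to 0.82). Over all probe sets tested 53.8% lay lower, with a median of −0.03. None of the 23 was called by limma (0.00887% of all probe sets were), and 0 had an unadjusted p under 0.05, against 8.25% of all probe sets.

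In pristine particles 21 genes lay lower and 2 higher, with a median of −0.26 (range −0.76 to 0.52), where 48.7% of all probe sets lay lower with a median of 0.00. Limma called 0 of them (0.00443% of all probe sets) and 0 had an unadjusted p under 0.05 (8.63% of all probe sets). In silver nitrate 18 genes lay lower and 5 higher, with a median of −0.18 (range −0.79 to 0.56), where 51.9% of all probe sets lay lower with a median of −0.01. Limma called 0 (0.133% of all probe sets), and 1 gene, msp-53, had an unadjusted p under 0.05 (12.3% of all probe sets). The 3 comparisons share their control arrays.

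**Figure D1:**
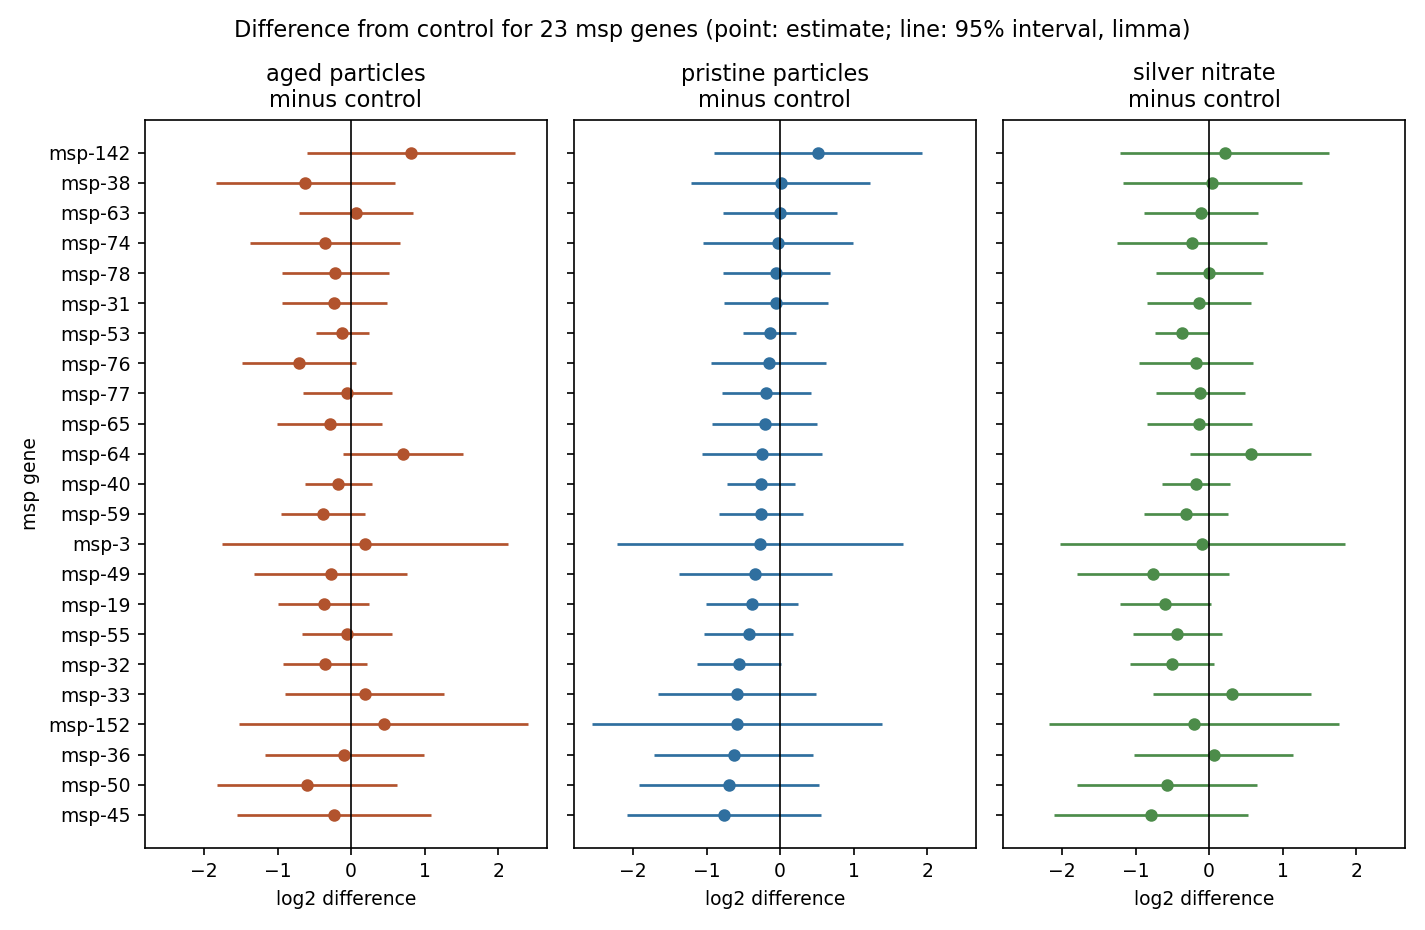
Log2 difference from control (x axis) of each of the 23 msp genes (rows) in aged particles, pristine particles and silver nitrate (panels), with the 95% interval of the limma fit as a line. Most points lie left of 0, and every interval except that of msp-53 in silver nitrate spans 0.

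These counts moved with single arrays, first of all control replicate 3. Averaged over the 23 genes, the arrays had log2 signals of 6.60, 6.0 and 6.55 in aged particles, 6.48, 5.98 and 6.23 in pristine particles, 6.54, 6.10 and 6.28 in silver nitrate, and 6.09, 6.51 and 6.91 in control. Control replicate 3 was the highest of the 12 arrays, and control replicate 1 lay within the range of the exposed arrays, so the groups overlap. The group means were 6.39 ± 0.33 in aged particles, 6.23 ± 0.25 in pristine particles, 6.31 ± 0.22 in silver nitrate and 6.50 ± 0.41 in control (SD, n = 3 each).

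Control replicate 3 held the highest value of 12 of the 23 genes, and 20 genes lay above their own median there. On aged replicate 2, pristine replicate 2 and nitrate replicate 2, each the lowest array of its group, 5, 3 and 4 genes lay above their own median. Without control replicate 3, the genes lower than control numbered 10 in aged particles, 14 in pristine particles and 12 in silver nitrate, and the medians were 0.01, −0.05 and −0.01. Without control replicate 1 the counts were 21, 22 and 21, and the medians −0.36, −0.43 and −0.41. Without the lowest array of each exposure in turn, the medians were −0.06 (aged), −0.11 (pristine) and −0.03 (nitrate).

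Of the array's controls for RNA length, that for ubiquitin moved with these array means in part, and the others did not share its peak. The array's control probe sets for ubiquitin gave a 3-prime minus 5-prime log2 signal of 3.91, 3.97 and 4.08 in aged particles, 4.16, 3.81 and 4.0 in pristine particles, 4.03, 3.71 and 3.95 in silver nitrate, and 3.84, 4.01 and 4.29 in control. Like the msp mean it was highest on control replicate 3, and it was lowest on nitrate replicate 2 and pristine replicate 2, though not on aged replicate 2. The gly14 control was highest on pristine replicate 1 (−0.33) and lowest on control replicate 1 (−2.16), and those for actin, Gapdh and catalase were also highest on arrays other than control replicate 3. That for catalase was highest on nitrate replicate 2 (2.08), the lowest nitrate array of the msp genes. The part of RNA length in the msp values was not tested.

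**Figure D2:**
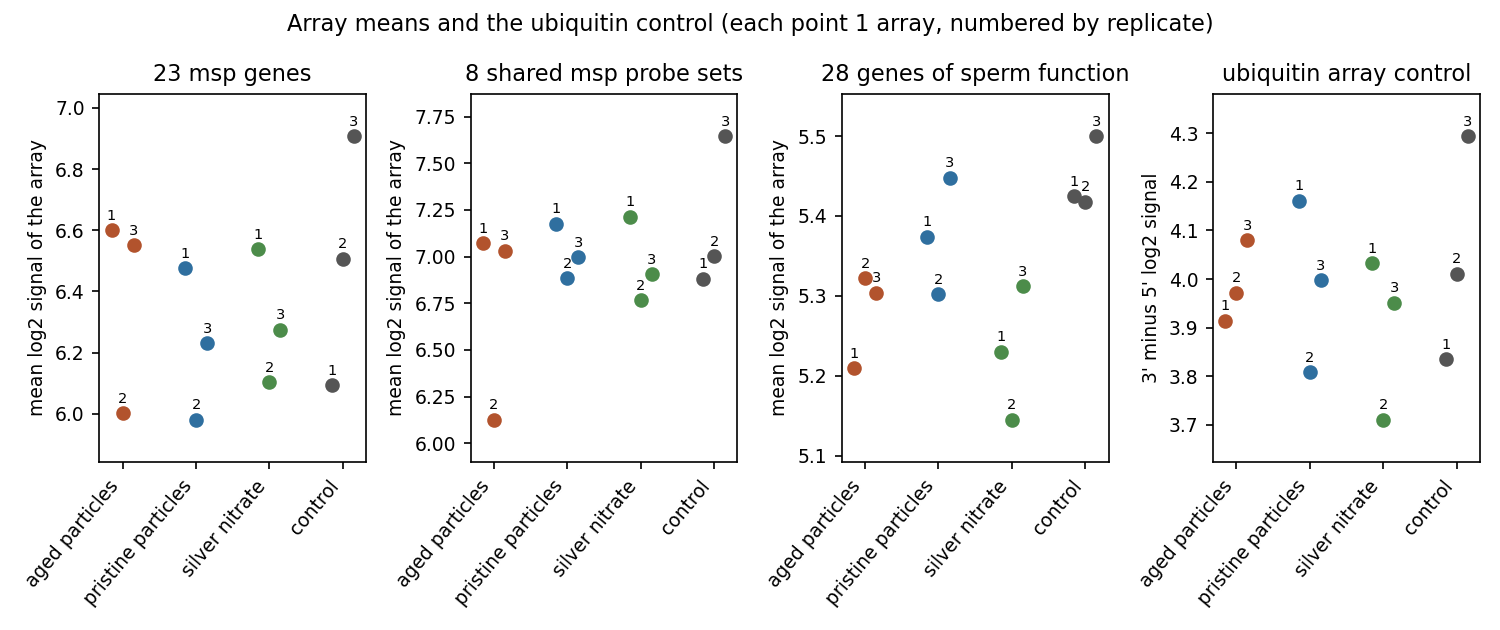
Mean log2 signal on each array (points, numbered by replicate) of the 23 msp genes, the 8 shared msp probe sets and 28 sperm-function genes, and the 3-prime minus 5-prime log2 signal of the ubiquitin control, by group. For the msp genes control replicate 3 (6.91) is the highest array and the exposed arrays lie between 5.98 and 6.60.

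The msp genes tended to be high or low on the same arrays. Over the 12 arrays, the 253 gene pairs had a median Pearson correlation of 0.36 (−0.50 to 0.88), and 216 pairs (85.4%) were positive. On chromosome IV all 45 pairs were positive with a median of 0.49, and on chromosome II 59 of 78 were, with a median of 0.23. The points share arrays, scaling and, among near-identical copies, transcripts that bind the same probes. Pairs of other genes were not computed, so these values do not show a trait particular to the family.

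The span of the group means was set beside the spread within groups. The 4 group means of a gene spanned a median of 0.55 log2 units, against a median pooled SD within groups of 0.44 (0.20 to 1.12). The span exceeded the SD in 12 genes and did not in 11. The spread within groups alone also sets means of 3 arrays apart, so neither the span nor this count shows a group effect. Aged particles had the highest group mean in 5 genes, pristine particles in 0, silver nitrate in 3 and control in 15. Aged particles had the lowest in 7, pristine particles in 9, silver nitrate in 6 and control in 1.

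By chromosome, all 10 genes on IV lay lower in aged particles than in control (median −0.25), while the 13 on II split into 7 lower and 6 higher (median −0.17). In pristine particles 9 of 10 on IV and 12 of 13 on II lay lower, with medians of −0.20 and −0.27. In silver nitrate 8 of 10 and 10 of 13 did, with medians of −0.16 and −0.18. Over all probe sets tested, 53.8% lay lower in aged particles, 48.7% in pristine particles and 51.9% in silver nitrate. The genes on IV averaged 7.1, 6.4 and 7.0 on the aged arrays and 6.9, 6.8 and 7.6 on the control arrays. Aged replicates 1 and 3 thus lay above control replicates 1 and 2. The copies can share signal, so the genes are not separate observations. The difference between the chromosomes was not tested.

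**Figure D3:**
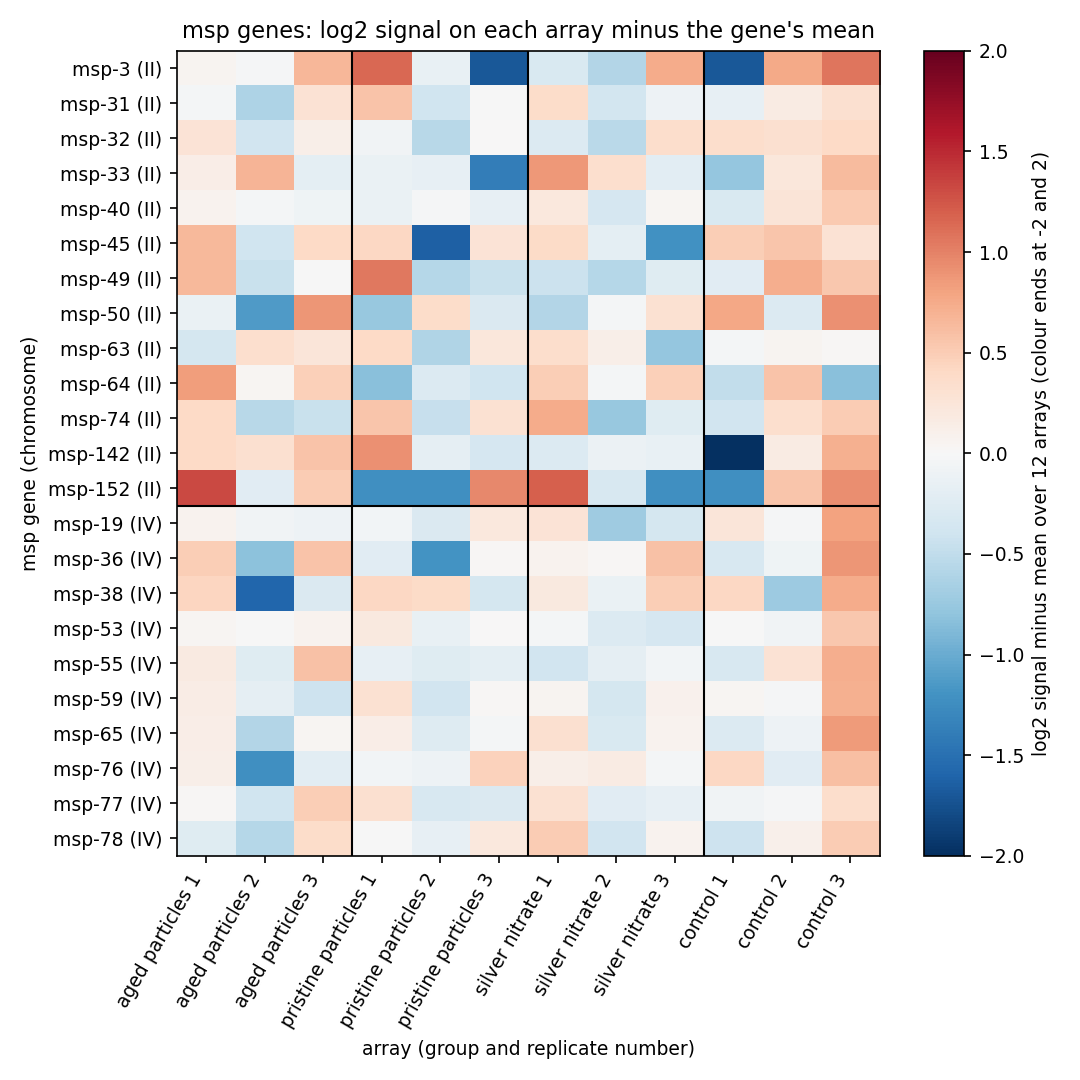
Log2 signal of each of the 23 msp genes (rows, by chromosome) on each of the 12 arrays (columns, by group), as the difference from the gene's mean over arrays (colour). The last column, control replicate 3, holds the highest value of 12 genes.

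Among the msp genes of strongest signal, msp-59 had 8.06, 7.73 and 7.49 in aged particles, 8.21, 7.53 and 7.93 in pristine particles, 7.96, 7.55 and 7.99 in silver nitrate, and 7.95, 7.88 and 8.61 in control. The highest array was control replicate 3, and control overlapped each exposure. Its differences from control were −0.39 in aged particles (95% interval −0.96 to 0.19, limma adjusted p = 0.75), −0.26 in pristine particles and −0.31 in silver nitrate. For msp-65 the arrays read 7.80, 7.08 and 7.71 in aged particles, 7.80, 7.41 and 7.63 in pristine particles, 7.98, 7.36 and 7.74 in silver nitrate, and 7.39, 7.56 and 8.52 in control. Again control replicate 3 was the highest, and the other control arrays lay inside the exposed range. The differences were −0.29, −0.21 and −0.13.

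The 2 genes of narrowest range over the 12 arrays were msp-40 (0.85) and msp-53 (0.87). For msp-53 the arrays read 7.63, 7.59 and 7.65 in aged particles, 7.78, 7.44 and 7.60 in pristine particles, 7.55, 7.32 and 7.26 in silver nitrate, and 7.58, 7.52 and 8.13 in control. Every aged array exceeded every nitrate array, while nitrate replicate 1 overlapped control. Silver nitrate minus control was −0.37 (95% interval −0.73 to −0.01, limma adjusted p = 0.398), and aged particles minus silver nitrate was 0.25 (−0.11 to 0.61, adjusted p = 0.65). For msp-40 the differences from control were −0.17, −0.26 and −0.18 in aged particles, pristine particles and silver nitrate.

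For msp-19 the arrays read 7.39, 7.25 and 7.22 in aged particles, 7.26, 7.03 and 7.54 in pristine particles, 7.60, 6.61 and 6.97 in silver nitrate, and 7.56, 7.29 and 8.12 in control. Control overlapped every exposure. The differences were −0.37, −0.38 (95% interval −1.0 to 0.24, limma adjusted p = 0.766) and −0.60 (−1.22 to 0.03, adjusted p = 0.428). For msp-55 the arrays read 7.34, 6.92 and 7.76 in aged particles, 7.0, 6.92 and 6.98 in pristine particles, 6.79, 6.98 and 7.12 in silver nitrate, and 6.84, 7.45 and 7.88 in control. Control replicate 1 lay below all exposed arrays but nitrate replicate 1, so the groups overlap. The differences were −0.05, −0.43 (−1.04 to 0.18, limma adjusted p = 0.741) and −0.43 (adjusted p = 0.584).

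The gene msp-32 had 2 probe sets of its own. The one of stronger signal, the msp probe set without the _x_at suffix, read 6.33, 5.67 and 6.16 in aged particles, 5.98, 5.5 and 6.06 in pristine particles, 5.78, 5.51 and 6.40 in silver nitrate, and 6.40, 6.36 and 6.44 in control. All aged and pristine arrays lay below all control arrays, and nitrate replicate 3 overlapped control. It was the only one of the 23 genes so placed in either comparison, where 6.7% of all probe sets were in aged particles and 5.98% in pristine particles. The differences were −0.35 in aged particles (95% interval −0.92 to 0.22, limma adjusted p = 0.76), −0.55 in pristine particles (−1.12 to 0.02, adjusted p = 0.591) and −0.51 in silver nitrate (−1.08 to 0.06, adjusted p = 0.471).

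On its _x_at probe set msp-32 read 4.48, 4.57 and 6.68 in aged particles, 6.66, 6.19 and 4.50 in pristine particles, 4.85, 5.55 and 5.98 in silver nitrate, and 5.48, 6.38 and 6.94 in control. The arrays of each group scattered widely and overlapped control. The differences from control were −1.02, −0.48 and −0.81, lower as on the other probe set. Between exposures the 2 probe sets had opposite signs: aged minus pristine was 0.21 on the stronger and −0.54 on the _x_at probe set, aged minus nitrate 0.16 and −0.22, and pristine minus nitrate −0.05 and 0.32.

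For msp-76 the arrays read 6.57, 5.23 and 6.25 in aged particles, 6.41, 6.37 and 6.92 in pristine particles, 6.58, 6.62 and 6.42 in silver nitrate, and 6.88, 6.23 and 7.06 in control. Aged replicate 2 was far below the rest, and the other aged arrays overlapped control. Aged particles minus control was −0.71 (95% interval −1.48 to 0.07, limma adjusted p = 0.649), and aged particles minus silver nitrate was −0.52 (adjusted p = 0.661). For msp-36 the arrays read 6.34, 5.03 and 6.42 in aged particles, 5.62, 4.66 and 5.88 in pristine particles, 5.93, 5.87 and 6.44 in silver nitrate, and 5.54, 5.77 and 6.74 in control. Pristine particles overlapped control, with a difference of −0.63 (−1.71 to 0.45, limma adjusted p = 0.776).

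Between exposures, msp-64 had the smallest p. It read 5.67, 4.87 and 5.31 in aged particles, 4.0, 4.56 and 4.43 in pristine particles, 5.33, 4.79 and 5.31 in silver nitrate, and 4.33, 5.40 and 4.0 in control. Every aged array and every nitrate array exceeded every pristine array, and control overlapped all of them. Aged minus pristine particles was 0.95 (95% interval 0.14 to 1.77, limma adjusted p = 0.399), pristine particles minus silver nitrate was −0.81 (−1.63 to 0.01, adjusted p = 0.532), and aged particles minus control was 0.71 (−0.11 to 1.53, adjusted p = 0.667). Pristine replicate 1 and control replicate 3 were at the floor, so these are lower bounds in size. Among all probe sets, 6.85% had every aged array above every pristine array, and 5.75% had every pristine array below every nitrate array.

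For msp-33 the arrays read 5.96, 6.51 and 5.62 in aged particles, 5.68, 5.65 and 4.45 in pristine particles, 6.69, 6.16 and 5.62 in silver nitrate, and 5.04, 6.04 and 6.45 in control. Pristine replicate 3 was the lowest array, and all groups overlapped. Aged minus pristine particles was 0.77 (95% interval −0.31 to 1.84, limma adjusted p = 0.661) and pristine particles minus silver nitrate was −0.89 (−1.97 to 0.18, adjusted p = 0.627).

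Over the 23 genes, aged particles lay higher than pristine particles in 16 genes and lower in 7 (median 0.08), with 0 called by limma (0.111% of all probe sets) and 1, msp-64, at an unadjusted p under 0.05 (10.3%). Aged particles lay higher than silver nitrate in 13 and lower in 10 (median 0.07), with 0 called (0.253%) and 0 at an unadjusted p under 0.05 (11%). Pristine particles lay higher than silver nitrate in 11 and lower in 12 (median −0.04), with 0 called (0.00443%) and 0 at an unadjusted p under 0.05 (9.54%). Each median changed sign with single arrays left out. Aged minus pristine was −0.06 without pristine replicate 2, and aged minus nitrate was −0.02 without aged replicate 1 and −0.03 without nitrate replicate 2. Pristine minus nitrate was 0.04 without pristine replicate 2, 0.10 without nitrate replicate 1 and 0.05 without nitrate replicate 3. The F test over the 3 exposures called 0 msp probe sets (0.0621% of all probe sets), where 12.9% of all probe sets had an unadjusted p under 0.05.

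The median width of the 95% interval of a difference was 1.55 log2 units for msp genes and 0.90 for all probe sets. A difference as small as the medians above was thus not detectable in a single msp gene with these arrays.

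Of the genes of weakest signal, msp-49 read 5.22, 4.13 and 4.57 in aged particles, 5.63, 4.0 and 4.13 in pristine particles, 4.15, 4.0 and 4.33 in silver nitrate, and 4.35, 5.30 and 5.12 in control. All nitrate arrays lay below all control arrays, the only one of the 23 genes so placed (8.03% of all probe sets). The difference was −0.76 (95% interval −1.80 to 0.28, limma adjusted p = 0.564), a lower bound in size because nitrate replicate 2 was at the floor. For msp-50 the arrays read 5.04, 4.04 and 6.06 in aged particles, 4.43, 5.54 and 4.89 in pristine particles, 4.59, 5.14 and 5.49 in silver nitrate, and 5.95, 4.90 and 6.09 in control. The groups overlapped, with differences of −0.59, −0.69 and −0.57.

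The widest ranges over the arrays belonged to msp-142 (2.96) and msp-3 (2.84). For msp-142 the arrays read 6.58, 6.51 and 6.75 in aged particles, 7.1, 6.0 and 5.84 in pristine particles, 5.92, 6.07 and 6.04 in silver nitrate, and 4.15, 6.35 and 6.90 in control. Control replicate 1 was far below the other arrays, and control overlapped each exposure. The differences from control were 0.82 (95% interval −0.60 to 2.23, limma adjusted p = 0.774), 0.52 and 0.21. Every aged array exceeded every nitrate array in msp-142 and msp-53, 2 of the 23 genes, as in 7.49% of all probe sets.

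For msp-3 the arrays read 5.74, 5.67 and 6.34 in aged particles, 6.84, 5.54 and 4.0 in pristine particles, 5.38, 5.10 and 6.43 in silver nitrate, and 4.0, 6.45 and 6.75 in control. Pristine replicate 3 and control replicate 1 were at the floor, and the groups overlapped. The differences were 0.18, −0.27 and −0.09. With an array of both groups at the floor, −0.27 is not a bound in either direction. The gene msp-152 was at the floor on pristine replicates 1 and 2, nitrate replicate 3 and control replicate 1, and 4 of the 23 genes in all reached the floor.

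**Figure D4:**
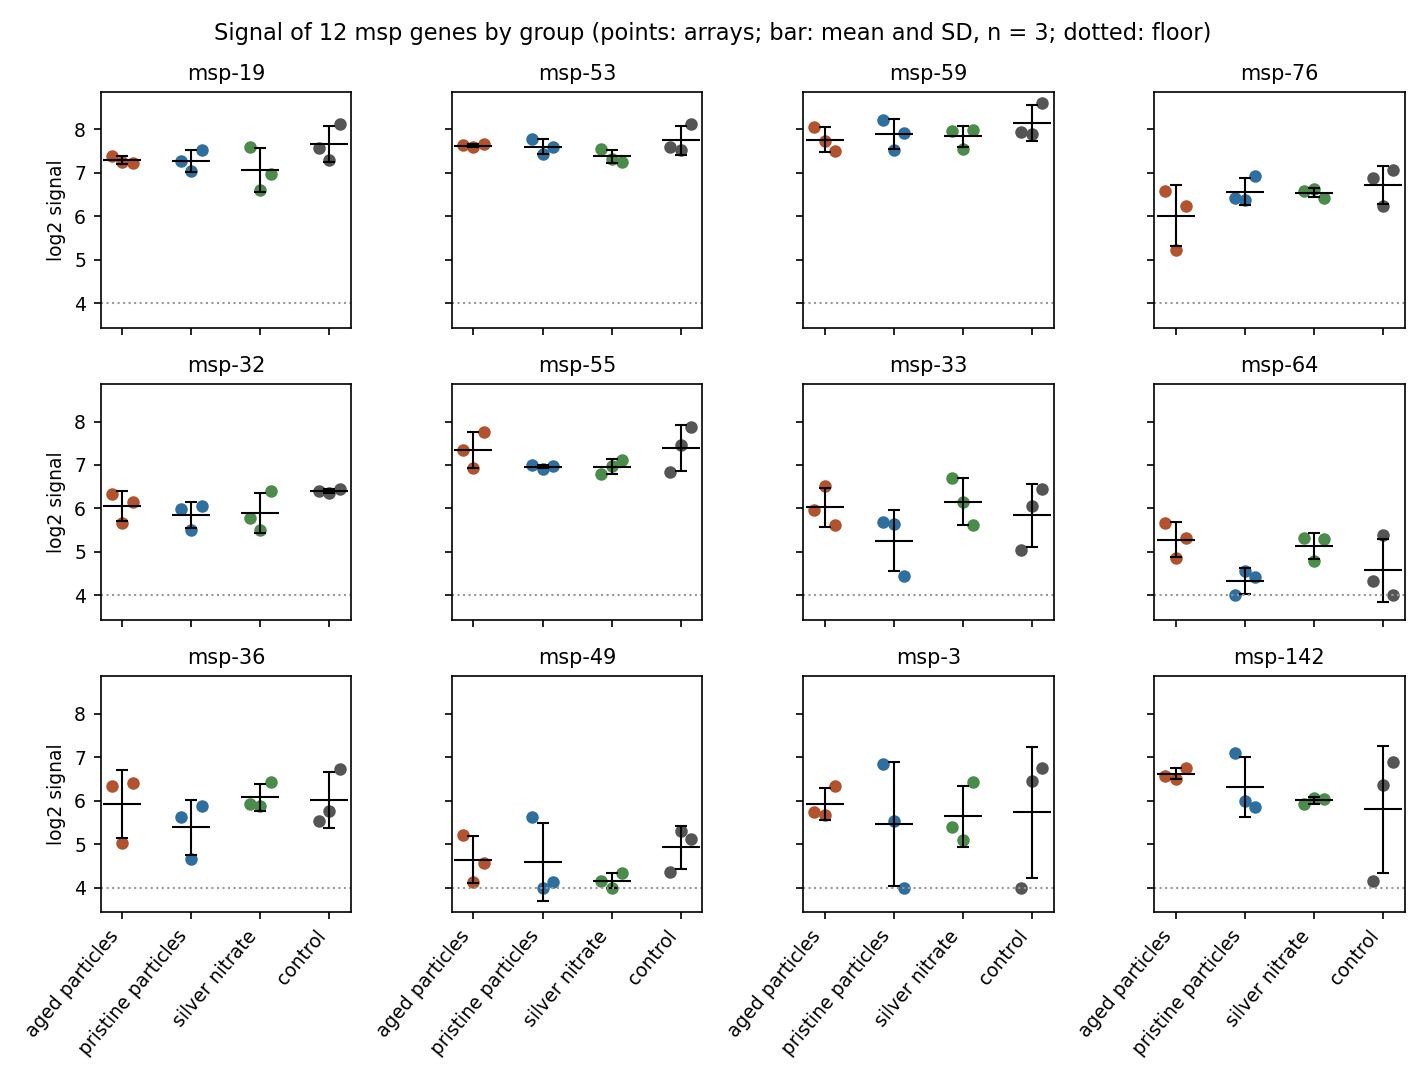
Log2 signal of 12 msp genes (panels) on each array (points) by group, with the group mean and SD (n = 3) as bars and the floor as a dotted line. For msp-32 every aged and pristine array lies below every control array, and for msp-64 every aged array lies above every pristine array.

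The 8 shared probe sets measure some of the same copies and are not independent of the genes above. They lay lower than control in 8 of 8 cases in aged particles (median −0.49, range −0.98 to −0.05), in 6 in pristine particles (median −0.12) and in 7 in silver nitrate (median −0.25), and limma called 0. Over 1196 other _x_at probe sets the medians were −0.02, −0.02 and −0.07, and 629, 645 and 702 of them lay lower. Averaged over the 8 probe sets, the aged arrays read 7.071, 6.127 and 7.032 and the control arrays 6.882, 7.003 and 7.646. Aged replicate 2 was the lowest of the 12 arrays and control replicate 3 the highest. Aged replicates 1 and 3 lay above control replicates 1 and 2. Leaving out single arrays was not tested for these 8 alone. The probe set with the most genes also named genes without an msp symbol. The strongest shared signals came from a probe set of msp-113 and msp-65 and from one of msp-51, msp-53, msp-57 and msp-55.

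The probe set of msp-113 and msp-65 read 8.02, 7.34 and 8.0 in aged particles, 8.01, 7.78 and 7.99 in pristine particles, 8.16, 7.54 and 7.53 in silver nitrate, and 7.70, 7.72 and 8.46 in control. That of msp-51, msp-53, msp-57 and msp-55 read 7.66, 6.47 and 7.56 in aged particles, 7.76, 7.27 and 7.1 in pristine particles, 7.48, 7.27 and 7.15 in silver nitrate, and 7.38, 7.71 and 8.07 in control. In both, control replicate 3 was the highest array and the groups overlapped. The weakest shared signals came from 2 probe sets of msp-56 and msp-10. One read 6.62, 4.36 and 6.29 in aged particles and 6.74, 6.43 and 7.06 in control, a difference of −0.98 (95% interval −2.15 to 0.18, limma adjusted p = 0.672) in which aged replicate 2 was far below the rest. The other gave −0.61 in aged particles and 0.10 and 0.14 in pristine particles and silver nitrate.

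Other sperm genes gave a mixed picture, and limma called 0 of them. Of 28 measured genes of spermatid activation and sperm function, 17 lay lower and 8 higher in aged particles, 12 and 12 in pristine particles, and 18 and 6 in silver nitrate, with medians of −0.15, 0.00 and −0.13. At an unadjusted p under 0.05 there were 2, 4 and 3 of the 28 genes, where 8.25%, 8.63% and 12.3% of all probe sets had one. The gene spe-36, for a secreted sperm protein needed at fertilization, read 5.28, 5.41 and 5.07 in aged particles, 4.95, 5.32 and 5.39 in pristine particles, 5.60, 5.69 and 5.62 in silver nitrate, and 5.71, 6.06 and 6.36 in control. All exposed arrays lay below all control arrays. Taken 1 exposure at a time, 2, 2 and 4 of the 28 genes were so placed, and 6.7%, 5.98% and 8.03% of all probe sets. The differences were −0.79 (95% interval −1.18 to −0.40, limma adjusted p = 0.264), −0.83 (adjusted p = 0.22) and −0.41 (adjusted p = 0.385). For spe-47 all control arrays were at the floor, and pristine particles lay 0.49 above it (adjusted p = 0.336).

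The ssp and msd genes encode other sperm proteins with an MSP domain. Of 10 measured, 7, 8 and 8 lay lower in aged particles, pristine particles and silver nitrate, with medians of −0.18, −0.05 and −0.10. Of these 10 genes 0 had an unadjusted p under 0.05, where 8.25%, 8.63% and 12.3% of all probe sets had one, too few genes to read a difference from. The 2 with the smallest p were ssp-16, at 1.10, 1.04 and 0.57, and msd-2, at −0.27, −1.09 and 0.76. For msd-2 both pristine particles and control had an array at the floor, so −1.09 is not a bound. Of the 6 nspd peptides measured, 4, 5 and 3 lay lower, with medians of −0.17, −0.14 and −0.28. For nspd-4 the aged arrays read 5.63, 5.65 and 5.55 and the control arrays 4.85, 4.0 and 4.0. The difference was 1.33 (95% interval 0.475 to 2.182, limma adjusted p = 0.405). Control replicates 2 and 3 were at the floor, so the estimate is a lower bound in size in that respect only. For nspd-2 silver nitrate minus control was −1.02 (adjusted p = 0.35).

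Of the 17 regulators of spermatogenesis, 9, 4 and 7 lay lower than control, with medians of −0.02, 0.18 and 0.13. The gene cpb-1, for an RNA-binding protein needed in spermatogenesis, read 4.0, 4.0 and 5.17 in silver nitrate and 5.79, 5.76 and 6.67 in control. All nitrate arrays lay below all control arrays, with a difference of −1.68 (95% interval −2.56 to −0.81, limma adjusted p = 0.131) that is a lower bound in size. In silver nitrate 1 of the 17 genes was so placed, and 8.03% of all probe sets. The reverse, all exposed arrays above all control arrays, held for 2, 2 and 3 of the 17 genes. It held for 986, 1202 and 1364 of the 22548 probe sets. The translational repressor gene gld-1 differed from control by 0.92, 0.64 and 1.04 (limma adjusted p = 0.483, 0.621 and 0.214). All its exposed arrays lay above all control arrays.

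Of the 18 genes of the MSP receptor and the oocyte response, 11, 7 and 8 lay lower, with medians of −0.05, 0.04 and 0.01. The kinase genes mpk-1 and mek-2, which act in that response, differed from control in silver nitrate by 0.28 and −0.65 (limma adjusted p = 0.15 and 0.387). Of the 15 oocyte and yolk genes measured, 8, 10 and 9 lay higher, with medians of 0.03, 0.22 and 0.21. At an unadjusted p under 0.05, 0 of the 15 lay higher and 1 lower in aged particles. In pristine particles 2 lay higher and 1 lower, and in silver nitrate 3 and 2. Over all probe sets, 8.25%, 8.63% and 12.3% had such a p in either direction. In silver nitrate the eggshell proteoglycan gene cpg-2 differed by 0.97 (limma adjusted p = 0.0584) and the yolk protein gene vit-4 by −1.21 (adjusted p = 0.145). Of the 7 genes of the spermatheca, sheath and seminal fluid measured, 1, 2 and 2 lay lower. Among them swm-1, which holds back early sperm activation in males, differed by −0.89 in silver nitrate (limma adjusted p = 0.104) and fkh-6 by 0.43 (adjusted p = 0.346). No gene of these lists was called.

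Markers of sperm and of other cells were read on the same arrays. Over the 12 arrays spe-9 and fer-1 ran between 5.07 and 6.59 and gsp-4 between 4.09 and 5.99. The gene gsp-3 ran between the floor and 5.5, and spe-11 lay at the floor on every array. The mean of the 28 sperm-function genes on an array was 5.21 to 5.32 in aged particles, 5.30 to 5.45 in pristine particles, 5.15 to 5.31 in silver nitrate and 5.42 to 5.5 in control. The yolk genes vit-2 and vit-5 did not exceed 5.27 on any array, vit-6 ran between 6.45 and 7.27, and the eggshell gene cpg-1 between 8.52 and 9.33. Oocyte markers differed from control in both directions. In aged particles, pristine particles and silver nitrate, oma-1 differed by −0.59, −0.48 and −0.21, and rme-2 by 0.36, 0.57 and 0.42. For cpg-1 the differences were 0.09, 0.43 and 0.39, and for puf-5 0.2, 1.14 and 1.06. The puf-5 signal was at the floor on aged replicate 2 and control replicate 2. Of 9 genes of male-specific neurons, 7 lay lower in each exposure, with medians of −0.12, −0.17 and −0.24. Over all probe sets 53.8%, 48.7% and 51.9% lay lower. Of the 9 genes, lov-1, pkd-2 and cwp-3 did not exceed 5.06 on any array, and cwp-4 ran between 8.32 and 8.89. Floor values enter the count of lower genes. For example, cwp-3 left the floor only on control replicate 2 (4.62), and lov-1 was at the floor on all aged arrays. The part of males or of oocytes in the msp values was not tested.

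Outside the family, the genes above median signal (8617) were ranked by the Pearson correlation of their log2 signal with the msp mean over the 12 arrays. The 10 most alike were Y54B9A.1 (0.88), F34H10.1 (0.87), emr-1 (0.86), T02H6.3 (0.85), Y54F10AM.8 (0.84), str-182 (0.83), ZC262.2 (0.82), lido-17 (0.80), mig-10 (0.80) and T01C8.3 (0.79). Of these, 4 were on _x_at probe sets, which made up 5.19% of the probe sets ranked. The values describe arrays that share their scaling. With 8617 genes ranked over 12 arrays, some unrelated genes also reach high correlations, and the list was not tested.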

How the data were processed

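RNA from 12 samples was labelled with biotin (100 ng each, per the labels' protocols) and hybridised to Affymetrix C. elegans arrays. The deposited intensity values covered 22625 probe sets on a linear scale, with medians per array of 119.1 to 135.1. Means trimmed by 2% at each end were 500.1 to 500.2, so values were scaled before they were deposited. The summarisation software was not given in the sources used here. Setting aside 77 array controls left 22548 probe sets. Arrays were scaled to one median, floored at 16 and log2 transformed.

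All 12 arrays entered 1 limma fit of 4 group means (limma 3.58.1, R 4.3.3; 8 residual degrees of freedom), and two-sided p-values had Benjamini-Hochberg adjustment over the 22548 probe sets. Intervals used the moderated standard errors. Summaries were made in Python 3.11.15, and the fit was tested on simulated data. Of several probe sets of a gene, that with the highest mean stood for it. The msp genes named were the 4 with the smallest p against control and the 2 between exposures, those of strongest, weakest, widest and narrowest signal, and those whose probe sets differ in sign. In other lists the 2 with the smallest p were named. The members and lists were chosen with earlier results of these data known. Alternatives covered scaling, floor, dim probe sets, variance model, samples fitted, the replicate block, probe sets per gene and leaving out each array. Sequences were not analysed here.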

Additional observations from a re-analysis of the deposited data

How the results depend on the processing

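No msp probe set was called by limma under any alternative: 153 of 153 recomputed counts were 0, and the smallest adjusted p was 0.178. The counts of msp genes lower than in control were less stable. Without control replicate 3 they fell from 17 to 10 of 23 in aged particles, from 21 to 14 in pristine particles and from 18 to 12 in silver nitrate. The aged median then changed sign, to 0.01. Leaving out single arrays gave 10 to 21 lower in aged particles, 14 to 22 in pristine particles and 12 to 21 in silver nitrate (alternatives chosen after seeing the data). The medians against control ranged from −0.36 to 0.01 in aged particles, −0.43 to −0.05 in pristine particles and −0.41 to −0.01 in silver nitrate, and between exposures from −0.06 to 0.31 (aged minus pristine), −0.03 to 0.27 (aged minus nitrate) and −0.13 to 0.10 (pristine minus nitrate). The other alternatives gave medians of −0.23 to −0.14, −0.26 to −0.14 and −0.31 to −0.11 against control, and of 0.01 to 0.16, −0.02 to 0.07 and −0.08 to 0.05 between exposures. With the replicate number as a block (replicate block), 0 msp probe sets were called. The medians stayed at −0.21, −0.26 and −0.18, which says nothing about replicate effects. Each group holds each replicate number once, so a block cannot change a difference of group means. The variance model and fitting the compared arrays alone cannot change the medians either. Deviations of same-numbered arrays correlated between 0.02 and 0.22 in the 9 pairs between exposures, all positive, and between −0.24 and 0.08 in the 9 pairs with control, of which 2 were positive. Over all 18 pairs 5 were over 0.1, which is short of the mark set for pairing (every pair over 0.1), and a shared origin of same-numbered exposed arrays was not tested. The cause of the shift without control replicate 3 was not tested.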
